A study of Mus musculus with 4 samples.

Results

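The neurotrophin system and the 2 genes behind the ETV6-NTRK3 fusion were followed in 4 mouse mammary tumours, each measured on 1 Affymetrix mouse genome array. The genes were Etv6, Ntrk2, Ntrk3, Bdnf, Ntf3, Ngfr and Sort1, and every probe set (a group of short probes that reads 1 target) whose only symbol was one of these names was taken. This gave 26 of the 45101 probe sets on the array, from 6 of the 7 genes and of 18193 genes that the annotation names: 8 each for Ntrk2 and Ntrk3, 3 each for Ngfr and Sort1, and 2 each for Etv6 and Bdnf. No probe set was named with Ntf3, which encodes neurotrophin-3, so the expression of that gene was not analysed here.

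All 4 tumours grew in nude mice, which lack a thymus and so most mature T cells, after transplantation of Eph4 cells, an established mouse mammary epithelial line that had been transduced with ETV6-NTRK3. In the 2 Eph_EN tumours this fusion was the only added gene named in the labels. The 2 Eph_EN_DN tumours came from such cells that carried TAM67 as well. TAM67 is a dominant negative c-Jun, and c-Jun is a subunit of the transcription factor AP-1. The comparison thus shows how fusion-carrying tumours with TAM67 differed from those without it. Both groups therefore carried the fusion, and no tumour or cell without it was analysed here. The sources used here give no promoter for the constructs, age of the mice, or number of clones or pooled animals. The labels number the tumours and say no more of their origin, so a p-value here covers only how these samples vary, and that variation may be technical.

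Neurotrophins are secreted growth factors that keep neurons alive and shape their connections. They are made as precursors that proteases cut, and the mature factors bind Trk receptor tyrosine kinases: BDNF binds TrkB, the product of Ntrk2, and neurotrophin-3 binds TrkC, the product of Ntrk3. The p75 receptor, from Ngfr, binds all neurotrophins, and with sortilin, from Sort1, it binds their precursors. ETV6 is a transcriptional repressor of the ETS family. In the fusion its dimerising amino-terminal part is joined to the TrkC kinase domain, which then signals with no ligand.

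No member probe set passed the test between the groups. Few were brighter than the 95th percentile of olfactory receptor probe sets. Those receptors are genes of the nose and serve here as a reference for low signal. On a linear intensity scale the array medians were 35.6 and 35.9 in Eph_EN and 38.1 and 40.8 in Eph_EN_DN tumours. The 44 olfactory receptor probe sets had medians of 23.1 and 29.9 units in the Eph_EN and 27.2 and 37.4 units in the Eph_EN_DN tumours. Their 95th percentile was 64.2 and 60.8 units in the Eph_EN and 55.2 and 72.8 units in the Eph_EN_DN tumours. It lay above the array median on all 4 arrays, so most probe sets of an array were below it too. Only 1 member probe set, of Etv6, was above that percentile on all 4 arrays. A further 2, of Ngfr and Sort1, were above it on some arrays, and 23 of 26 on none, among them all 8 probe sets of Ntrk2, all 8 of Ntrk3 and both of Bdnf. The array median was exceeded on all 4 arrays by 2 member probe sets and on no array by 14.

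**Figure D1:**
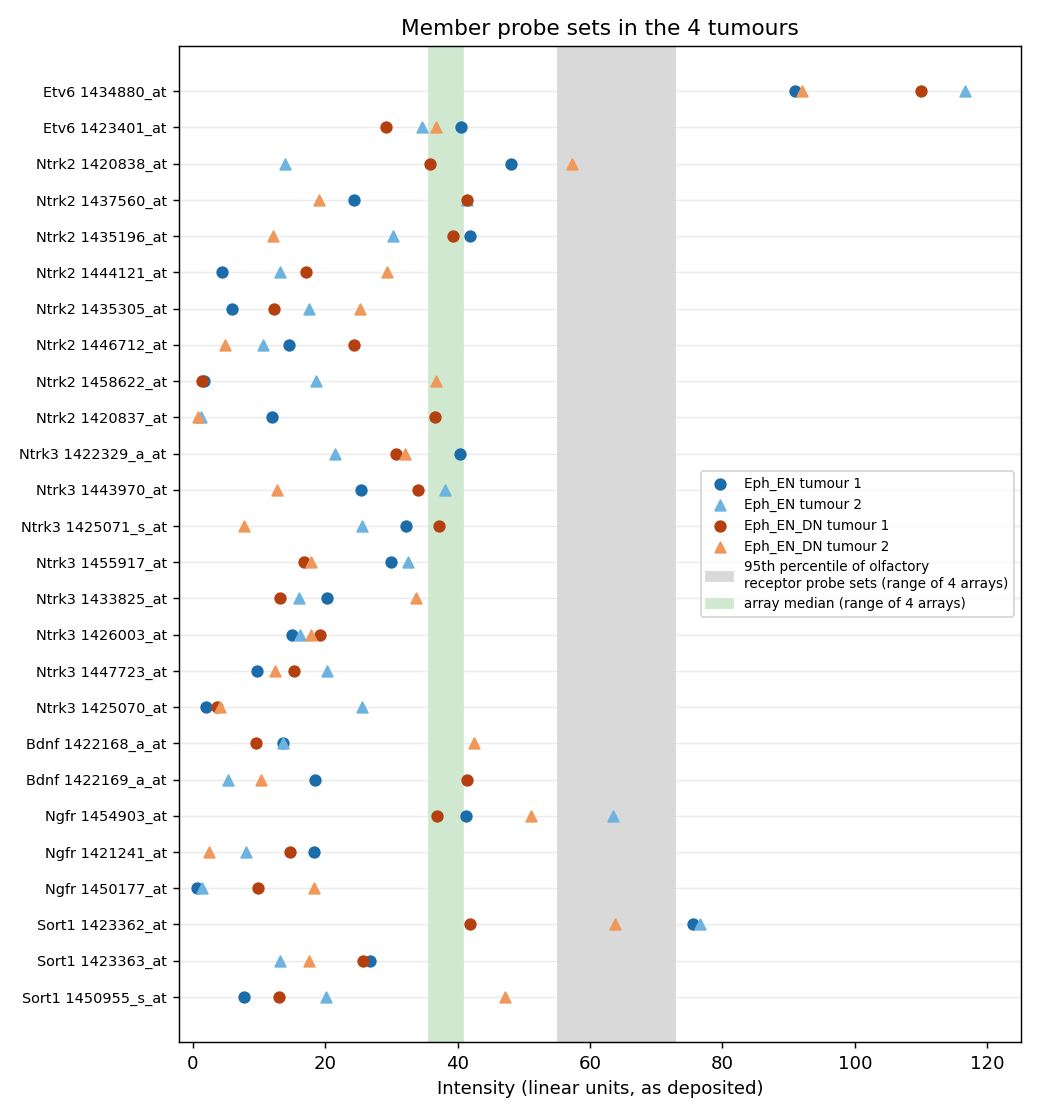
Intensity of each of the 26 member probe sets (vertical axis) in the 4 tumours, in linear units as deposited (horizontal axis); each point is 1 tumour. The bands give the range over the 4 arrays of the array median and of the 95th percentile of the olfactory receptor probe sets. One Etv6 probe set lies to the right of the grey band in all tumours, and most other points lie at or to the left of the green band.

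Differences are Eph_EN_DN minus Eph_EN on the scale log2(intensity + 16), which understates the change of dim probe sets, with n = 2 tumours a group. After the dimmest 40% of probe sets had been left out, 27022 were tested with limma, of which 9 of the 26 members: 3 of Ntrk2, 2 each of Etv6 and Ntrk3, and 1 each of Ngfr and Sort1. Of these 9, 0 passed an adjusted p under 0.05 and 0 had an unadjusted p under 0.05, where 0.215% of all tested probe sets passed the adjusted and 9.33% the unadjusted threshold. Their lowest adjusted p was 0.627. The 9 differences ran from -0.44 to 0.49 with a median of -0.13, beside a median of 0.039 over all tested probe sets, and 2 were positive and 7 negative. With no filter, 0 of 26 passed either threshold, where 0.335% of 45037 probe sets passed the adjusted and 7.88% the unadjusted one. All 26 had a median difference of 0.034, with 14 positive and 12 negative, beside a median of 0.059 over all probe sets. An exact permutation test of 2 tumours against 2 cannot go below p = 0.333 (two-sided), so no such test was used.

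The 95% intervals were wide. Over the 9 tested members they reached from -1.28 (a Ntrk2 probe set) to 1.33 (another Ntrk2 probe set), so differences of more than 1 log2 unit lay within some of them, and a missed threshold does not show that the groups were alike. For the brighter Etv6 probe set the interval was narrower, from -0.53 to 0.47. Tumours of the same group differed by a median of 0.48 (Eph_EN) and 0.52 (Eph_EN_DN) on the log2 scale over the 26 members, against 0.32 in both groups over all probe sets. Over the 9 tested members the medians were 0.39 (Eph_EN) and 0.46 (Eph_EN_DN), against 0.27 and 0.25 over all tested probe sets. Neither comparison was matched for signal level.

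**Figure D2:**
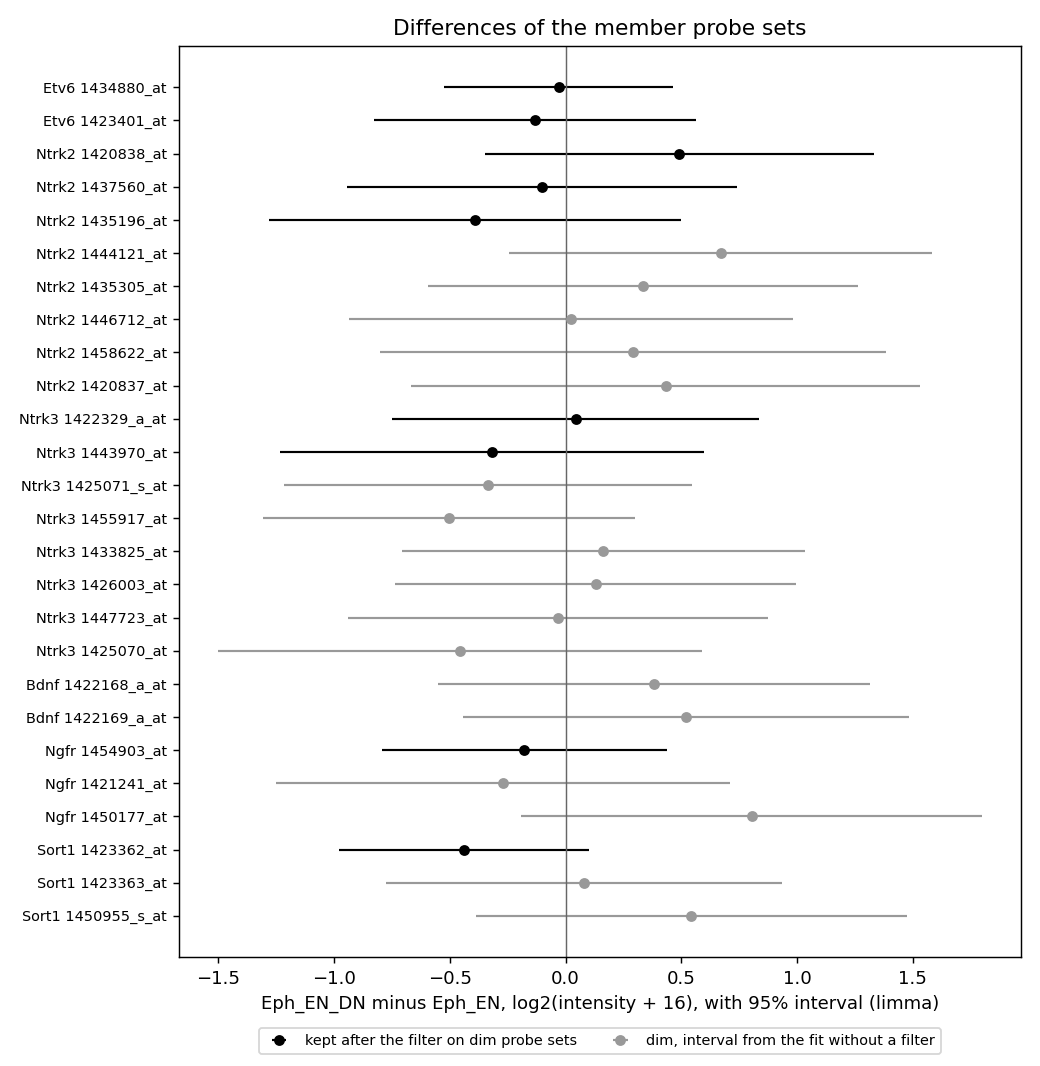
Difference between the groups for each member probe set (points) with its 95% interval from limma (bars), on the scale log2(intensity + 16), n = 2 tumours a group. Black points passed the filter on dim probe sets; grey points did not, and their intervals come from the fit without that filter. Every interval includes 0.

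Groups that do not overlap were found in 5 of the 26 probe sets, of Ntrk2, Ntrk3 (a pair with opposite directions), Ngfr and Sort1, whereas 37.3% of all probe sets had such groups. In 3 the Eph_EN_DN tumours were higher, where 21.5% of all probe sets were, and in 2 they were lower, where 15.9% were. Of the 9 tested members 1 had groups that did not overlap, against 39.7% of all tested probe sets. In each case the share of members was below the background.

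Etv6, on mouse chromosome 6, gave the brightest member signal. Its probe set 1434880_at read 91.0 and 116.7 units in Eph_EN and 110.0 and 92.1 units in Eph_EN_DN tumours, between the 75.2th and 79.8th percentile of an array. The 2 groups overlapped fully, with means of 104 ± 18.1 and 101.0 ± 12.7 units (SD, n = 2) and a difference of -0.030 ± 0.23 (SE, limma adjusted p = 0.985). The other probe set, 1423401_at, read 40.5 and 34.6 units in Eph_EN and 29.2 and 36.8 units in Eph_EN_DN tumours, near the array medians. It differed by -0.13 ± 0.32, with an interval from -0.83 to 0.57. The sources used here do not say whether these probes read the mouse gene alone or also the fusion transcript, so neither Etv6 nor Ntrk3 signal checks the labels.

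The Ntrk3 probe sets, on a gene of chromosome 7, were dim in every tumour, from 1.96 to 40.4 units, although all tumours carried a fusion with the kinase part of NTRK3. Ntrk2 and Ntrk3 both make full-length receptors and truncated forms without the kinase, and the sources used here do not say which form a probe set reads. The brightest Ntrk3 probe set, 1422329_a_at, read 40.4 and 21.5 units in Eph_EN and 30.8 and 32.1 units in Eph_EN_DN tumours, with the Eph_EN values on either side of the others. It differed by 0.044 ± 0.37 (SE, adjusted p = 0.985). That direction was not stable, since it was -0.054 after centring each array on its median and -0.055 with quantile normalization. The other tested one, 1443970_at, read 25.4 and 38.2 units in Eph_EN and 34.1 and 12.8 units in Eph_EN_DN tumours, a difference of -0.32 ± 0.43 that rested on the low value of Eph_EN_DN tumour 2. Without that tumour it was 0.080.

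Among the 6 Ntrk3 probe sets below the filter, 1455917_at read 29.9 and 32.6 units in Eph_EN and 16.8 and 17.8 units in Eph_EN_DN tumours, so both Eph_EN_DN tumours were lower and the groups did not overlap. The difference was -0.50, and with each tumour left out in turn it ran from -0.54 to -0.46. In the fit with no filter it had an adjusted p of 0.814 and an interval from -1.31 to 0.30, and all 4 values lay below the array medians. The probe set 1426003_at went the other way, with 15.0 and 16.3 units in Eph_EN and 19.3 and 17.9 units in Eph_EN_DN tumours, a difference of 0.13 (adjusted p = 0.969 with no filter). In 1425070_at only Eph_EN tumour 2, at 25.5 units, stood above the other tumours, which read 1.96, 3.63 and 4.18 units. The remaining 3 ran from 7.69 to 37.3 units with groups that overlapped and differences of -0.34 to 0.16.

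Ntrk2, on chromosome 13, encodes TrkB, the BDNF receptor. Its brightest probe set, 1420838_at, read 48.1 and 14.0 units in Eph_EN and 35.9 and 57.3 units in Eph_EN_DN tumours. Eph_EN tumour 2 was the low one, and without it the difference of 0.49 ± 0.39 (SE, adjusted p = 0.738) was -0.056. Without Eph_EN tumour 1 it was 1.04. The probe set 1435196_at read 41.8 and 30.3 units in Eph_EN against 39.3 and 12.1 units in Eph_EN_DN tumours, a difference of -0.39 ± 0.41, which was 0.096 without Eph_EN_DN tumour 2. The third tested one, 1437560_at, read 24.3 and 41.5 units against 41.4 and 19.0 units, a difference of -0.10 ± 0.39. The 3 tested probe sets of Ntrk2 thus had different signs, and each had 1 tumour of each group on either side of the array medians.

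Of the 5 Ntrk2 probe sets below the filter, 1444121_at was higher in both Eph_EN_DN tumours. It read 4.36 and 13.1 units in Eph_EN and 17.2 and 29.3 units in Eph_EN_DN tumours, a difference of 0.67 with an interval from -0.24 to 1.58 (adjusted p = 0.774 with no filter). The other 4 overlapped between the groups, with differences from 0.024 to 0.43. Tumours of a group could be far apart here: 1420837_at read 36.6 units in Eph_EN_DN tumour 1 and 0.792 in tumour 2, and 1458622_at read 1.40 and 36.7 units in the same tumours. Those 2 probe sets thus ordered the Eph_EN_DN tumours in opposite ways.

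Bdnf, on chromosome 2, encodes brain-derived neurotrophic factor and was the one ligand with probe sets among the members. Neither probe set passed the filter on dim values. In 1422168_a_at the values were 13.6 and 13.7 units in Eph_EN and 9.58 and 42.5 units in Eph_EN_DN tumours. In 1422169_a_at they were 18.5 and 5.28 units in Eph_EN and 41.4 and 10.3 units in Eph_EN_DN tumours. Each had 1 Eph_EN_DN tumour just above its array median, tumour 2 in the former and tumour 1 in the latter, so the 2 probe sets did not single out the same tumour. Their differences were 0.38 (adjusted p = 0.891 with no filter) and 0.52 (adjusted p = 0.846).

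Ngfr, on chromosome 11, encodes the p75 receptor, a member of the tumour necrosis factor receptor family that is abundant in Schwann cells and in the basal layer of the mammary epithelium. Its brightest probe set, 1454903_at, read 41.3 and 63.4 units in Eph_EN and 36.9 and 51.1 units in Eph_EN_DN tumours. The groups overlapped, and the difference was -0.18 ± 0.29 (SE, adjusted p = 0.888). It was above the olfactory receptor percentile on 1 array, that of Eph_EN tumour 2. The probe set 1450177_at had the largest difference of the 26, at 0.80, from 0.689 and 1.43 units in Eph_EN to 9.83 and 18.4 units in Eph_EN_DN tumours. Both groups lay far below the array medians, the adjusted p was 0.739 with no filter, and the difference was 0.60 without Eph_EN_DN tumour 2 and 1.01 without tumour 1. In 1421241_at the values were 18.3 and 8.07 units in Eph_EN and 14.7 and 2.45 units in Eph_EN_DN tumours, a difference of -0.27, so the 3 Ngfr probe sets did not share a sign.

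Sort1, on chromosome 3, encodes sortilin, a sorting receptor of the Golgi and cell surface that also handles other cargo than neurotrophin precursors. Its brightest probe set, 1423362_at, was lower in both Eph_EN_DN tumours, at 41.8 and 63.8 units, than in the Eph_EN tumours, at 75.5 and 76.7 units. This made means of 52.8 ± 15.5 and 76.1 ± 0.823 units (SD, n = 2) and a difference of -0.44 ± 0.25 (SE), with an interval from -0.98 to 0.10. It had the lowest adjusted p of the tested members, 0.627, and the only groups among them that did not overlap. The size depended on 1 tumour: it was -0.21 without Eph_EN_DN tumour 1 and -0.67 without tumour 2. The dimmer probe sets did not follow it. In 1423363_at the values were 26.8 and 13.3 units in Eph_EN and 25.8 and 17.5 units in Eph_EN_DN tumours, a difference of 0.081. In 1450955_s_at they were 7.77 and 20.2 units against 13.0 and 47.1 units, a difference of 0.54. In bulk tissue, fewer cells of a type and less RNA per cell cannot be told apart.

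**Figure D3:**
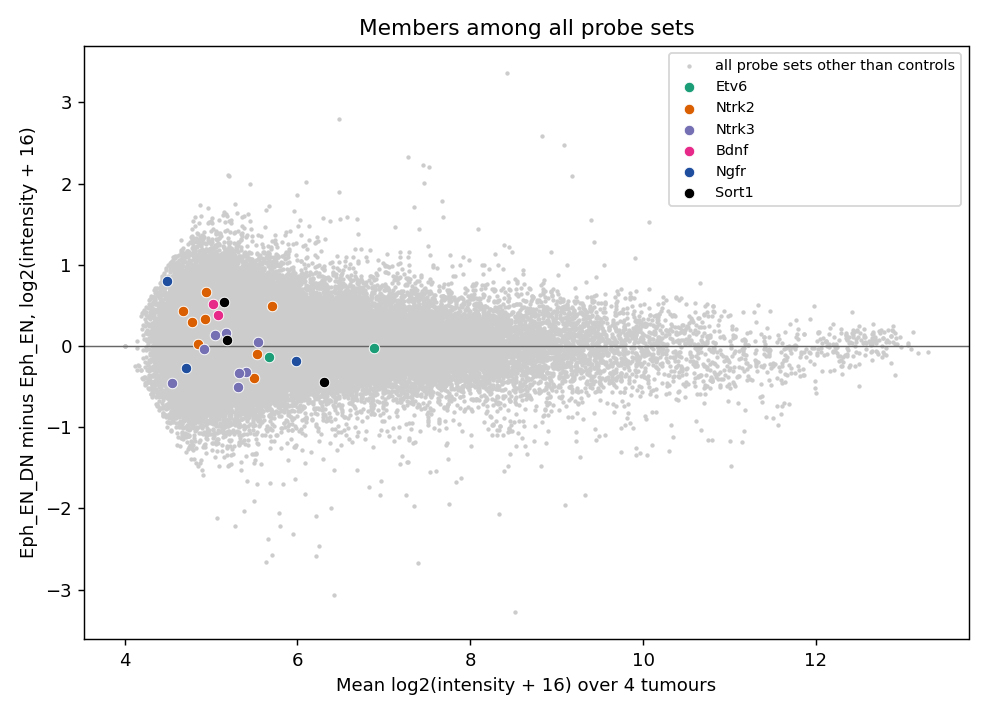
Difference between the groups (vertical axis) against the mean over the 4 tumours (horizontal axis), both on the scale log2(intensity + 16), for all 45037 probe sets other than controls (grey) and the members (coloured by gene). The members lie inside the cloud of all probe sets, most of them toward its dim end, with differences from -0.50 to 0.80; 1 probe set each of Etv6 and Sort1 lies farther to the right.

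The start sites of the members were searched for the sites that c-Jun complexes bind, since TAM67 acts on those complexes: the AP-1 site TGACTCA, the cyclic AMP response element TGACGTCA, and the shorter core TGACG, which is contained in that element, each on both strands. RefSeq windows of assembly GRCm38.p6, from 250 bases before to 50 after a start site, matched 5 of the 7 genes (Etv6, Ntrk2, Bdnf, Ntf3 and Ngfr) with 12 windows, 7 of them of Bdnf. Of the 12 windows 0 held the AP-1 site and 0 the full element, against 5.20% and 1.79% of all 32851 windows. The core occurred in 2 of the 12, against 20.8% of all windows. These are the windows with a match, 1 of Etv6 (chr6:134035450-134035749, plus strand, match at position -53 from the start site) and 1 of Bdnf (chr2:109692186-109692485, plus strand, match at position -35). The capitals mark the core as it reads on the other strand. A match is only a description of these letters.

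Etv6: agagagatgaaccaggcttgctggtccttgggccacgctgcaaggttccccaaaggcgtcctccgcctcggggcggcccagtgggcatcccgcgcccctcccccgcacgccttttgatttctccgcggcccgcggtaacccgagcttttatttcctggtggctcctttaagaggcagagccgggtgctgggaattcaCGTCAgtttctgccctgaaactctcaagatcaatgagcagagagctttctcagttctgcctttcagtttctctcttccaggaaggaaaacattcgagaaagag

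Bdnf: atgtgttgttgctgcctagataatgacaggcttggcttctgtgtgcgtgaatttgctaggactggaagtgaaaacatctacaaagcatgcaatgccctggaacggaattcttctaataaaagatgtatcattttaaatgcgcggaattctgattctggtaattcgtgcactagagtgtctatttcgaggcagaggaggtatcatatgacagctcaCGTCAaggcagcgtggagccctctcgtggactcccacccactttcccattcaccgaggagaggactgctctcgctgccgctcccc

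Beside these windows, Etv6 was at -0.030 and -0.13 (its 2 probe sets) and Bdnf at 0.38 and 0.52, all with groups that overlapped.

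The other genes of the system came from 6 lists, for each gene by its brightest probe set in the same fit. No gene of the 6 passed, where 0.0525% of the 13331 genes tested were higher and 0.195% lower in Eph_EN_DN tumours, with a median of 0.019. Regardless of the threshold, 6965 of the 13331 differences were positive and 6366 negative. Of 13 other neurotrophins, receptors and co-receptors, 8 were tested, 0 passed, and the median difference was 0.12. Ntf5, the fourth neurotrophin, which also binds TrkB, read 43.8 and 26.6 units in Eph_EN and 45.8 and 32.8 units in Eph_EN_DN tumours (0.12 ± 0.33). Rtn4r, the Nogo receptor that signals with p75, read 93.3 and 95 units in Eph_EN and 41.6 and 45.7 units in Eph_EN_DN tumours, a difference of -0.89 ± 0.23 (SE, adjusted p = 0.214). Both Eph_EN_DN tumours lay below both Eph_EN tumours there. Sorcs2, a relative of sortilin, read 57.9 and 16 units in Eph_EN and 45.6 and 50.3 units in Eph_EN_DN tumours (0.39 ± 0.37), with both Eph_EN_DN values between the Eph_EN values.

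Of 9 proneurotrophin processing genes 7 were tested, 0 passed, and 6 were negative, with a median of -0.38. Mmp3, a matrix metalloproteinase, was at -1.03 ± 0.35 (adjusted p = 0.364), with 441 units in Eph_EN tumour 2 against 161 in Eph_EN tumour 1 and 143 and 105 in the Eph_EN_DN tumours. Plat, tissue plasminogen activator, read 176 and 189 units in Eph_EN and 110.2 and 119 units in Eph_EN_DN tumours, a difference of -0.60 ± 0.22 (adjusted p = 0.409).

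Inside the cell, 22 of 26 Trk adaptors and proximal signalling genes were tested and 0 passed, with 11 positive, 11 negative and a median of -0.014. Shc1, an adaptor of activated Trk receptors, read 360.5 and 281 units in Eph_EN and 215 and 204 units in Eph_EN_DN tumours (-0.57 ± 0.22, adjusted p = 0.445). Irs1, an adaptor that the ETV6-NTRK3 kinase is known to bind, read 232 and 298 units in Eph_EN and 399 and 365 units in Eph_EN_DN tumours (0.51 ± 0.21, adjusted p = 0.493). The groups did not overlap in either, with opposite directions. Of 14 p75 interactors and cleavage genes, 10 were tested and 0 passed (median -0.13), with Psen2, a gamma-secretase subunit, at 0.48 and Maged1, a p75 binding protein, at -0.45. Of 13 genes listed as Etv6 partners, repressor complex genes or other ETS factors, 8 were tested and 0 passed (median 0.074). The largest differences were in other ETS factors, Etv4 at 0.34 and Etv5 at -0.28.

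Among 14 response genes that Trk signalling can induce, 13 were tested and 0 passed, and 11 were negative with a median of -0.25. Spry1, a feedback inhibitor of receptor tyrosine kinases, read 485 and 491 units in Eph_EN and 202 and 258 units in Eph_EN_DN tumours, a difference of -1.05 ± 0.21 (SE, adjusted p = 0.0715). When only the brightest probe set of each gene was tested, its adjusted p was 0.0402, and it was then the 1 gene of the 6 lists that fell. Egr1, an immediate early transcription factor, was at -0.49 ± 0.27.

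**Figure D4:**
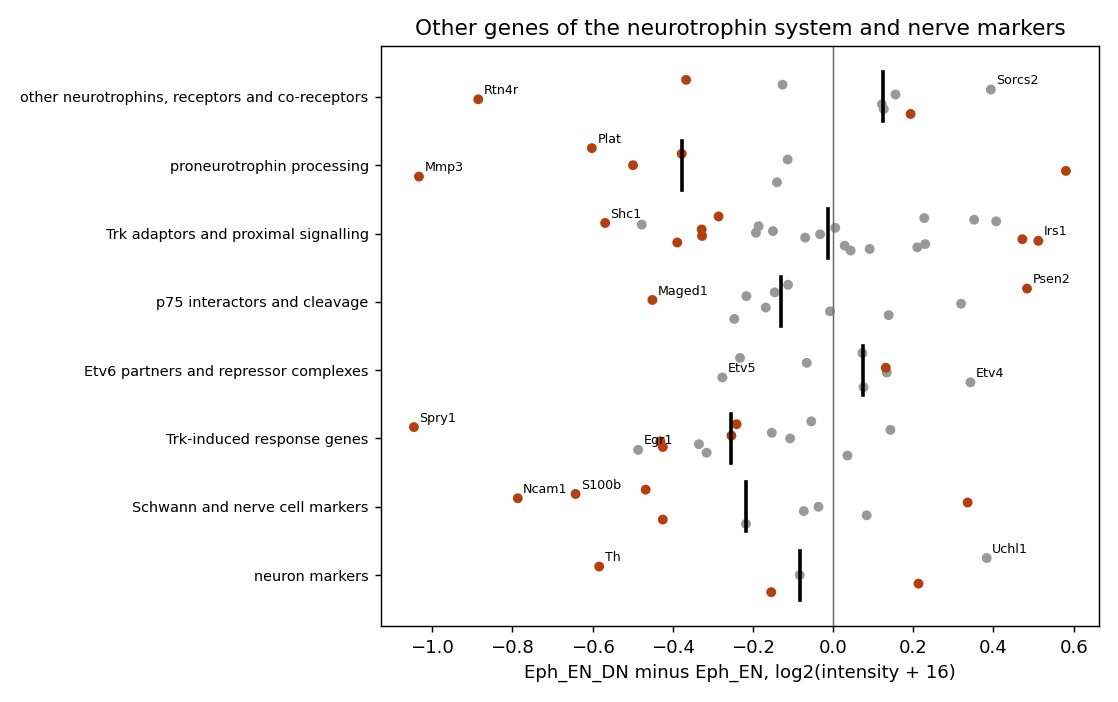
Difference between the groups on the scale log2(intensity + 16) (horizontal axis) for the tested genes of each list (vertical axis), with the list median as a black line and the genes with the largest differences named. Red points are genes whose groups did not overlap. No gene shown passed an adjusted p under 0.05 over all probe sets; Rtn4r, Mmp3 and Spry1 lie farthest to the left.

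Markers of nerve and other cells, and signs of RNA quality, were read in the same tumours, and their part in the values above was not tested. Of 14 Schwann and nerve cell markers 9 were tested, 0 passed and 7 were negative, with a median of -0.22. The 11 of these markers on the array, tested or not, summed to 871 to 924 units in Eph_EN and 708 to 726 units in Eph_EN_DN tumours, and none read 0. Ncam1, a neural adhesion molecule, was at -0.79 ± 0.26 (adjusted p = 0.360). S100b, a Schwann cell calcium binding protein, was at -0.64 ± 0.28 (adjusted p = 0.505). It read 116 and 144 units in Eph_EN and 53.4 and 109 units in Eph_EN_DN tumours. The 2 positive markers were Mbp at 0.34, with groups that did not overlap, and Erbb3 at 0.084. Of 10 neuron markers 5 were tested and 0 passed (median -0.083, Th at -0.58 and Uchl1 at 0.38). All 10 summed to 325 and 341 units in Eph_EN and 261 and 335 units in Eph_EN_DN tumours. None of the 10 neuron markers was above the olfactory receptor percentile on all arrays.

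The labelled tissue was checked against epithelial markers. Krt8, a luminal keratin, read 2048 and 2017 units in Eph_EN and 1596 and 1470 units in Eph_EN_DN tumours. In all, 7 of 14 mammary epithelial markers were above the olfactory receptor percentile on all arrays, while Krt19 and Ehf were at most 22.8 units. Of the 12 epithelial markers tested 0 passed (median -0.045, Krt14 at 0.67 and Krt5 at -0.63). Krt14 read 167 and 149 units in Eph_EN and 157 units in Eph_EN_DN tumour 1, and only Eph_EN_DN tumour 2, at 425 units, stood apart. Medians were -0.50 for 12 fibroblast, -0.49 for 10 macrophage, -0.48 for 7 endothelial, -0.079 for 8 pericyte and smooth muscle and -0.31 for 5 lymphocyte markers tested, with 0 passing on each. Negative differences numbered 11, 9, 7, 4 and 3 on these lists, in that order. The largest differences on those lists were in Lum (-1.07), Thy1 (-0.96), Lyz2 (-0.88), C1qb (-0.82), Cdh5 (-0.74), Eng (-0.70), Pdgfrb (-0.45), Des (0.44), Prf1 (-0.80) and Cd4 (-0.45). Prf1 was above the olfactory receptor percentile on no array. On the lymphocyte list 2 tested markers were positive, among them Cd3e at 0.44 with groups that did not overlap. Car3 rose (3.36 ± 0.42, adjusted p = 0.00716) among 6 adipocyte markers tested (median 2.02). The 8 adipocyte markers on the array, tested or not, summed to 642 and 412 units in Eph_EN and 1537 and 6600 units in Eph_EN_DN tumours. With only the brightest probe set of each gene tested, 4 adipocyte markers rose. In the first fit Myh1 rose (1.39 ± 0.24, adjusted p = 0.0371) among 4 skeletal muscle markers tested (median 0.22). The ratio of 3' to 5' signal of Gapdh was 0.938 and 1.04 in Eph_EN and 1.17 and 1.11 in Eph_EN_DN tumours. For beta-actin it was 1.11 and 1.19 in Eph_EN and 1.31 and 1.34 in Eph_EN_DN tumours. Both ratios were thus higher in each Eph_EN_DN tumour than in each Eph_EN tumour, and their part in the member values was not tested.

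With 4 arrays, profiles close to those of the members were common. Of the tested probe sets with 1 symbol, 1471 lay within a Euclidean distance of 0.2 from the brighter Etv6 probe set, over log2 values with each probe set's own mean removed, as did 548 from Ngfr, 469 from Ntrk3, 263 from Sort1 and 32 from Ntrk2. The nearest genes were Trnt1 and Mrpl15 for Etv6, Bet1l and 1700020L24Rik for Ntrk2, Nabp1 and Lynx1 for Ntrk3, Slc20a2 and Mgat5 for Ngfr, and 4930579K19Rik and Ctnnbip1 for Sort1.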

How the data were processed

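Total RNA of each tumour was labelled as biotinylated cRNA, per the labels' protocols. The authors deposited a linear intensity per probe set (45101) and array (4); probe summary, background correction and scaling are not given in the sources used here. Gene names came from the array platform's annotation: other than 64 controls, 34945 had 1 symbol, 932 several and 9160 none. Entrez IDs found 34741 of the former in a RefSeq table (GRCm38.p6), with 0 symbols changed.

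Controls and the dimmest 40% of the other probe sets by mean log2(intensity + 16) were left out, and each remaining probe set was tested with limma 3.58.1 in R 4.3.3 (intensity trend, two-sided, Benjamini-Hochberg over 27022, threshold 0.05). A member below the filter has its difference and, from the same fit with no filter, its interval and p. Genes on lists were read by their brightest probe set. Named genes were all member probe sets, from each list the genes past the threshold or else the 2 with the largest differences, and the 2 nearest profiles of each member; others named are there for their role. Members and lists were chosen with earlier results of these data known. The fit was tested on simulated data with independent noise, in which only probe sets brighter than the median of those tested were changed. The outcome is not given here and does not cover dim probe sets. Alternatives were other filters, pseudocounts, normalizations, variance models and thresholds, the brightest probe set of each gene, the replicate block and each array left out. The number of arrays limits the precision.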

Additional observations from a re-analysis of the deposited data

How the results depend on the processing

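The count of member probe sets past the threshold was 0 in limma under each of the 15 alternatives, with a lowest adjusted p of 0.423 (Ntrk2 1420838_at without Eph_EN tumour 1). At an unadjusted p under 0.05, Sort1 1423362_at was counted after median centring and without Eph_EN_DN tumour 2, and Ntrk2 1420838_at without Eph_EN tumour 1. Leaving out a tumour leaves 1 in its group, which is then assumed to vary like the other group. The 58 probe sets past the threshold over the whole array (15 higher, 43 lower) were 37 with median centring, 151 with no filter, 132 at an adjusted p under 0.10, and 0 without the intensity trend (2167 at an unadjusted p under 0.05). Left-out arrays gave 36 (without Eph_EN_DN tumour 2) to 263 (without Eph_EN tumour 2), and 126 without Eph_EN tumour 1. Equal tumour numbers did not deviate together (r = -0.042 across probe sets, which are not independent replicates), and the replicate block gave 7 probe sets, with 0 members. Testing only the brightest probe set of each gene called 74 genes.

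Of the 9 tested members, 2 kept their sign under each alternative in which they were tested, Sort1 1423362_at and Etv6 1423401_at, the latter not tested among brightest probe sets or with the dimmest 60% left out. Ntrk3 1422329_a_at was at -0.054 with median centring and -0.055 with quantile normalization. With single arrays left out it ran from -0.25 to 0.34, Ntrk3 1443970_at from -0.72 to 0.080, Etv6 1434880_at from -0.19 to 0.13, Ntrk2 1420838_at from -0.056 to 1.04, Ntrk2 1437560_at from -0.46 to 0.25, Ntrk2 1435196_at from -0.88 to 0.096 and Ngfr 1454903_at from -0.41 to 0.056. The cause of these changes was not tested beyond the arrays named. Low signal limits the members: 17 of 26 lay under the filter.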
